A study of Homo sapiens with 4 samples.

Results

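The B7 and CD28 families are the ligands and receptors that give a T cell its second signal. Their transcripts were followed in Myla cells, an established line from the cutaneous T cell lymphoma mycosis fungoides, after knockdown of FOXM1. FOXM1 is a forkhead factor that drives genes of the G2 and M phases of the cell cycle. The 10 genes are 5 ligands (CD80, CD86, CD274, PDCD1LG2 and ICOSLG) and 5 receptors (CD28, CTLA4, ICOS, PDCD1 and HAVCR2), found by symbol among the 58735 genes of the table. They were chosen by family and partly by the FPKM of CD80, which was higher in shFOXM1 than in shControl, so their differences between the groups are given below as a description, with no test.

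Messenger RNA of 2 groups was sequenced. The shFOXM1 group (genotype FOXM1 knockdown, 2 libraries) received a lentivirus with short hairpin RNA directed at FOXM1, and the shControl group (genotype WT, called FOXM1-VC in the design text, 2 libraries) a lentivirus with a scrambled hairpin. Each culture of 1 mL received 10 uL of viral supernatant, and RNA was taken 72 h after a change of medium at 24 h. The work is on 1 cell line. The sources used here do not say whether both shFOXM1 libraries carried the same hairpin or whether the cultures were transduced separately. The columns are named Myla_sh1 and Myla_sh2 for shFOXM1 and Myla_sh0_1 and Myla_sh0_2 for shControl, so Myla_sh1 and Myla_sh2 may stand for different hairpins. Any spread between libraries may therefore be technical or lie between hairpins. Levels are in FPKM, reads scaled to gene length and library size, which allows levels of different genes to be compared per length.

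As background, CD80 (B7-1) and CD86 (B7-2) are membrane proteins best known from antigen-presenting cells and also made by activated T cells. Both bind CD28, which promotes activation, and CTLA4, which restrains it and binds both more tightly than CD28 does. ICOS, a relative of CD28 induced on activated T cells, is engaged by the ICOS ligand, while PD-1 (PDCD1) restrains T cells when bound by PD-L1 (CD274) or PD-L2 (PDCD1LG2). TIM-3 (HAVCR2), an inhibitory receptor of exhausted T cells, belongs to another family and was included as a checkpoint.

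The recovered reads numbered between 14147084 and 15017728 per library. FOXM1 itself was at 9.27 and 5.59 FPKM in shFOXM1, against 26.5 and 27.6 FPKM in shControl, so both labels matched their target. Replicates differed on the log2 scale with an SD of 0.424 in shFOXM1 and 0.263 in shControl, taken over genes. Of 10 T cell markers 5 were under 1 FPKM in every library, with CD4 at 0 throughout and CD5, CD7, CD3E and LCK among the others, while CD3D was at 95.1 and 154 FPKM in shFOXM1 and 125 and 118 FPKM in shControl. The T cell markers at 1 FPKM or more were CD2, CD3D, CD3G, TRAC and CD8A, the last at 2.27 and 1.99 FPKM in shFOXM1 and 1.30 and 1.23 FPKM in shControl.

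The 10 genes fell into 3 abundant ones, 1 low one and 6 under 1 FPKM. In shControl the order was ICOS (58.7 ± 1.79 FPKM), CD86 (42.1 ± 1.21 FPKM), CD80 (18.4 ± 0.992 FPKM) and CD28 (2.26 ± 0.0118 FPKM; mean ± SD, n = 2 each). In shFOXM1 the mean was 53.8 ± 1.91 FPKM for CD86, 52.2 ± 26.7 for ICOS, 37.3 ± 3.85 for CD80 and 1.48 ± 0.551 for CD28 (n = 2 each). In shFOXM1 the ranges of CD86, ICOS and CD80 overlapped in that order, as the ICOS libraries lay on either side of the others, and those of CD80 and CD28 were apart. In shControl no range overlapped with the next down to ICOSLG, except that those of PDCD1LG2 and ICOSLG did. CD80 and CD86 together made up between 98.9 and 99.4% of the summed FPKM of the 5 ligands in each library, and ICOS between 95.01 and 96.8% of that of the 5 receptors.

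**Figure D1:**
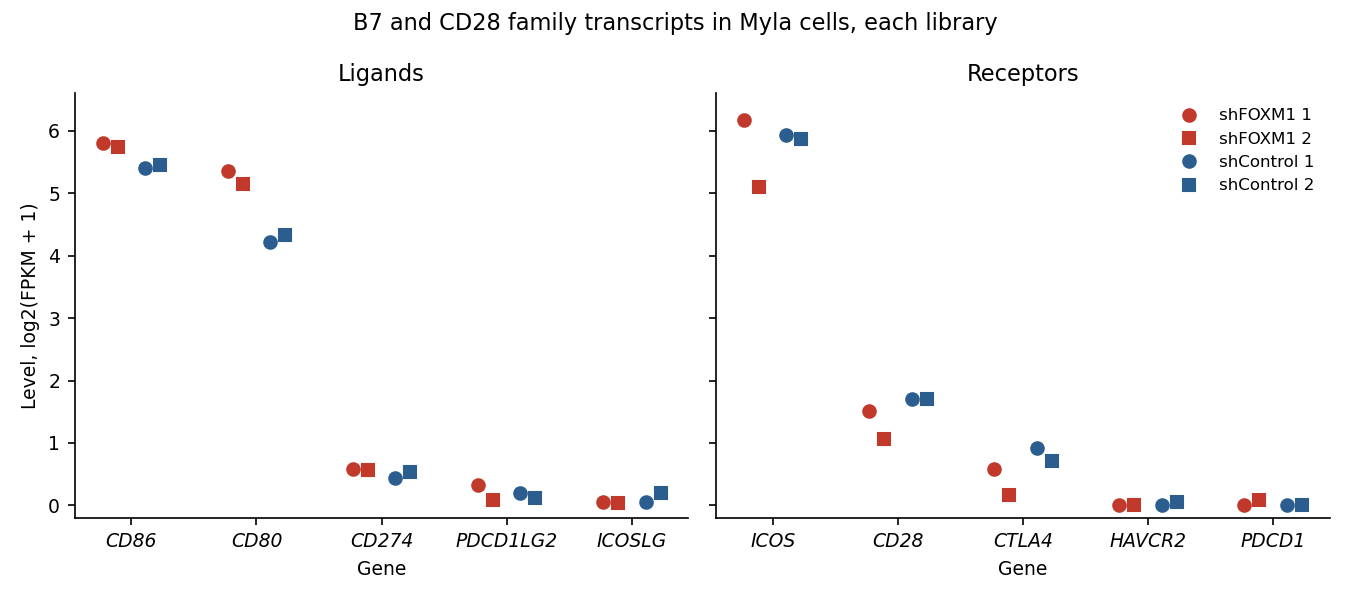
Level of each ligand (left) and receptor (right) as log2(FPKM + 1), 1 point per library, shFOXM1 in red and shControl in blue. CD80 and CD86 carry the ligand signal and ICOS the receptor signal, and the ICOS points of shFOXM1 lie on either side of those of shControl.

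CD80 was at 40.0 and 34.5 FPKM in shFOXM1, against 17.7 and 19.1 FPKM in shControl. Both knockdown libraries lay above both control libraries, and the values rested on 1894 and 1684 reads in shFOXM1 and 803 and 901 reads in shControl. The ratio of the mean FPKM, shFOXM1 over shControl, was 2.03, and the difference on the log2(FPKM + 1) scale was 0.98. This is the difference that partly chose the genes. Among protein-coding genes the mean level of CD80 stood at percentile 94.6 in shFOXM1 and percentile 87.3 in shControl. The ligand gene (ENSG00000121594) spans bases 119524293 to 119559602 of chromosome 3, minus strand (GRCh38, as in the table).

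The end of CD80 overlaps TIMMDC1, a mitochondrial assembly factor gene on the other strand, over 798 of CD80's 3201 exonic bases. Whether the counting used strand is not given in the sources used here, so reads of that stretch cannot be assigned to one of these genes. TIMMDC1 was at 19.5 and 21.9 FPKM in shFOXM1 and 20.3 and 18.1 FPKM in shControl, where the groups overlapped. ADPRH, 19.7 kb beyond the start of CD80 and a hydrolase of ADP-ribosylated proteins, was at 16.0 and 15.9 FPKM in shFOXM1 and 14.03 and 13.97 FPKM in shControl.

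CD86 was at 55.1 and 52.4 FPKM in shFOXM1 and 41.2 and 42.9 FPKM in shControl. Its groups did not overlap either, but the difference was smaller, with a ratio of means of 1.28 and a log2 difference of 0.35. The gene (ENSG00000114013) lies 2495.8 kb from CD80 on the plus strand of the same chromosome, from 122055366 to 122121139. ILDR1, the nearest gene before it and an immunoglobulin-like receptor gene, was at 2.02 and 2.73 FPKM in shFOXM1 and 3.0004 and 2.55 FPKM in shControl, where the groups overlapped. Within each library the ratio of CD80 to CD86, which does not depend on how libraries are scaled, was 0.725 and 0.659 in shFOXM1 and 0.429 and 0.444 in shControl. CD86 therefore remained the more abundant of the pair in every library, by a smaller margin in shFOXM1.

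**Figure D2:**
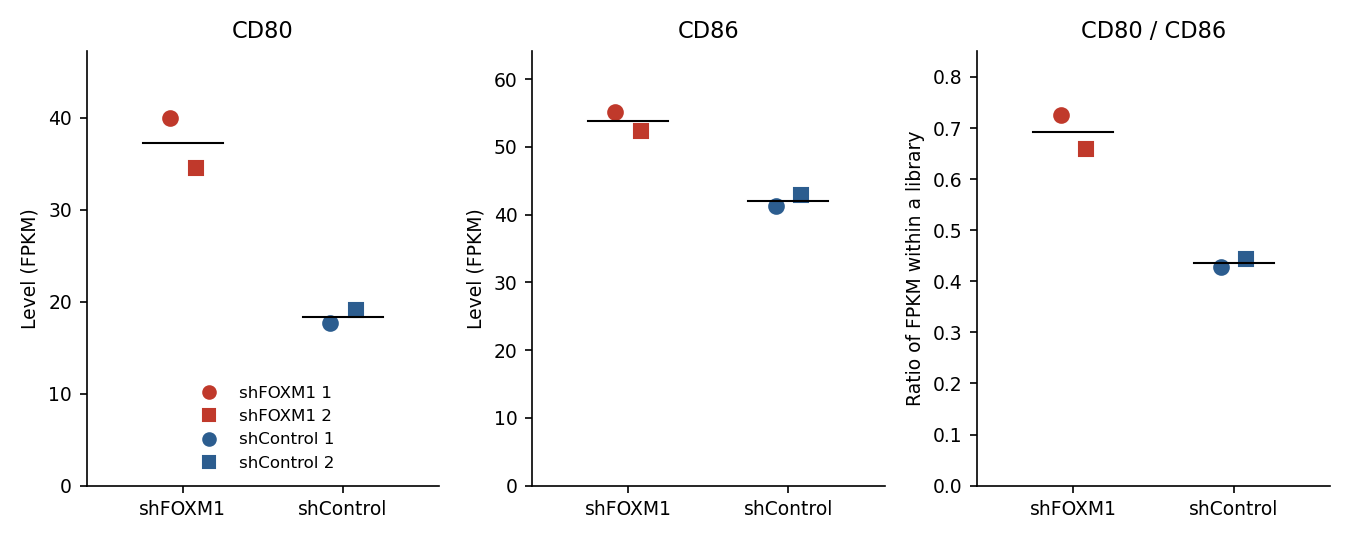
CD80 and CD86 in FPKM and their ratio within each library, 1 point per library with the group mean as a line, shFOXM1 left of shControl. Both shFOXM1 points lie above both shControl points in each panel, and the distance is greatest for CD80.

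The promoters of CD80, CD86 and ICOS are shown because these genes carried almost all of the signal, and that of CD274 because it sits at the other end of the range of motif matches. Each window runs from 250 bases before to 50 after the RefSeq transcript start (GRCh38.p14), 5′ to 3′ on the gene's strand. The promoter set used here held windows for 8 of the 10 genes, with a pair of starts for CD86. It lacked PDCD1LG2 and HAVCR2, whose promoters were not read. Capitals mark matches on either strand to any of an NF-kB motif (GGG and CC with 5 bases between), TGANTCA (AP-1), an interferon response element (GAAA repeated with 2 bases between), TTCNNNGAA (STAT), TAAACA (forkhead) and TTTGAA (the element of cell cycle genes bound by the MuvB complex, which recruits FOXM1).
CD80 (chr3:119559565-119559864, minus strand): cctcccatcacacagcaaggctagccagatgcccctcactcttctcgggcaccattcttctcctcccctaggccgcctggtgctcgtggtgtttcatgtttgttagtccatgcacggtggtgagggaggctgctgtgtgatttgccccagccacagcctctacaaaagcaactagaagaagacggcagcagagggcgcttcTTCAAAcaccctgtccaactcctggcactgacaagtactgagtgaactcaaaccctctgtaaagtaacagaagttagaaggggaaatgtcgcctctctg
CD86, upstream start (chr3:122055112-122055411, plus strand): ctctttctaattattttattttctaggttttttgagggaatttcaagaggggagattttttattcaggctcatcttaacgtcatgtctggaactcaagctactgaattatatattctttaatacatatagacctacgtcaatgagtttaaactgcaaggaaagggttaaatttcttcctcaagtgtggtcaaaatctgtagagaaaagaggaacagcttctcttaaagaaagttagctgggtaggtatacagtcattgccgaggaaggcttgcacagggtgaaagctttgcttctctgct
CD86, downstream start (chr3:122077534-122077833, plus strand): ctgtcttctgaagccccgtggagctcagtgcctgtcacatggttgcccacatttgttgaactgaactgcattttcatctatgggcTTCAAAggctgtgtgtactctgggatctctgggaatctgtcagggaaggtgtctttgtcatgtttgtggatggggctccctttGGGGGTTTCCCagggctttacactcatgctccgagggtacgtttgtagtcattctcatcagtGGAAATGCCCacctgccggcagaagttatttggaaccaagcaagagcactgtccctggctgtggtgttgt
ICOS (chr2:203936513-203936812, plus strand): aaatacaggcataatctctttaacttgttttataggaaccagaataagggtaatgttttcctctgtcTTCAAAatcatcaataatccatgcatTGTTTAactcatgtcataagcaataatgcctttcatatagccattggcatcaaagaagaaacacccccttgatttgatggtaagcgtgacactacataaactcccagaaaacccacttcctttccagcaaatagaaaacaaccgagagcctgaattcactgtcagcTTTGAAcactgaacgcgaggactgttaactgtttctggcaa
CD274 (chr9:5450292-5450591, plus strand): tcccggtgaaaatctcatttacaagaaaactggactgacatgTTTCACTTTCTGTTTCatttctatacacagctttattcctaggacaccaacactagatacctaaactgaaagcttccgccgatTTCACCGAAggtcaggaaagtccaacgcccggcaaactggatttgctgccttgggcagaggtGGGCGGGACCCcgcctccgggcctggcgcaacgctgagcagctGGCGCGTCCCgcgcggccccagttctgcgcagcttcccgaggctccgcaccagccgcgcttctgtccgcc

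The CD80 window held 1 match, TTTGAA read on the other strand at position -49 (the transcript start being +1), a motif found in 15.2% of the 34796 promoter windows. The upstream window of CD86 held no match to any of the 6 motifs. The downstream window held TTTGAA on the other strand at -165 and 3 matches to the NF-kB motif, which start at -82, -81 and -20 and of which the first overlaps the next. The forkhead letters TAAACA, present in 12.3% of windows, were in that of ICOS alone among the 8 genes, at -157 on the other strand, beside TTTGAA at -183 on the other strand and at 10 on the gene's own. The CD274 window had overlapping interferon-type matches at -208 and -202 (3.6% of windows), a STAT-type match at -125 (7.7%) and 3 NF-kB matches, a motif so loose that 58.6% of windows have it. TGANTCA, in 7.7% of all windows, was in none of those shown. A match says only that these letters are there, and no binding was measured.

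CD274, PDCD1LG2 and the ICOS ligand were low in both groups. CD274, which encodes PD-L1, was at 0.493 and 0.479 FPKM in shFOXM1 and 0.360 and 0.446 FPKM in shControl, on 30 and 30 reads against 21 and 27. Its group values did not overlap, but the exact 95% Poisson intervals of the reads did. They were 0.333 to 0.704 and 0.323 to 0.684 FPKM in shFOXM1 and 0.223 to 0.551 and 0.294 to 0.648 FPKM in shControl. Overlap of single-library intervals is no test of the groups, and a difference in CD274 was not tested. These intervals cover counting error only. PDCD1LG2, encoding PD-L2 and lying 40.0 kb downstream of CD274, had 9 and 2 reads in shFOXM1 and 5 and 3 in shControl. The expressed gene on the other side of CD274, PLGRKT, a plasminogen receptor, was at 2.58 and 4.35 FPKM in shFOXM1 and 3.11 and 4.18 FPKM in shControl, and RIC1, past PDCD1LG2, at 3.10 and 4.20 FPKM and 4.08 and 4.16 FPKM in the same groups.

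ICOSLG was at 0.0362 and 0.0281 FPKM in shFOXM1 and 0.0377 and 0.145 FPKM in shControl, on 5 and 4 reads against 5 and 20. These values understate the ICOS ligand, since the table has another gene that it describes as one. That gene, FP565260.3 (ENSG00000277117, chromosome 21 from 5022493 to 5040666, plus strand), lies on the same chromosome as ICOSLG (44217014 to 44240966, minus strand). Its longest transcript of 3274 bases aligned over 3233 columns to one of ICOSLG at 99.4% identity, so reads of these genes can be split between them or discarded by the counting. FP565260.3 was at 0.926 and 0.645 FPKM in shFOXM1 and 0.525 and 1.01 FPKM in shControl. Together both genes had 51 and 37 reads in shFOXM1 and 30 and 70 in shControl, and these sums overlapped between the groups. The nearest expressed neighbour, GATD3A, which has a copy of its own, was at 4.77 and 6.82 FPKM in shFOXM1 and 6.47 and 4.66 FPKM in shControl.

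**Figure D3:**
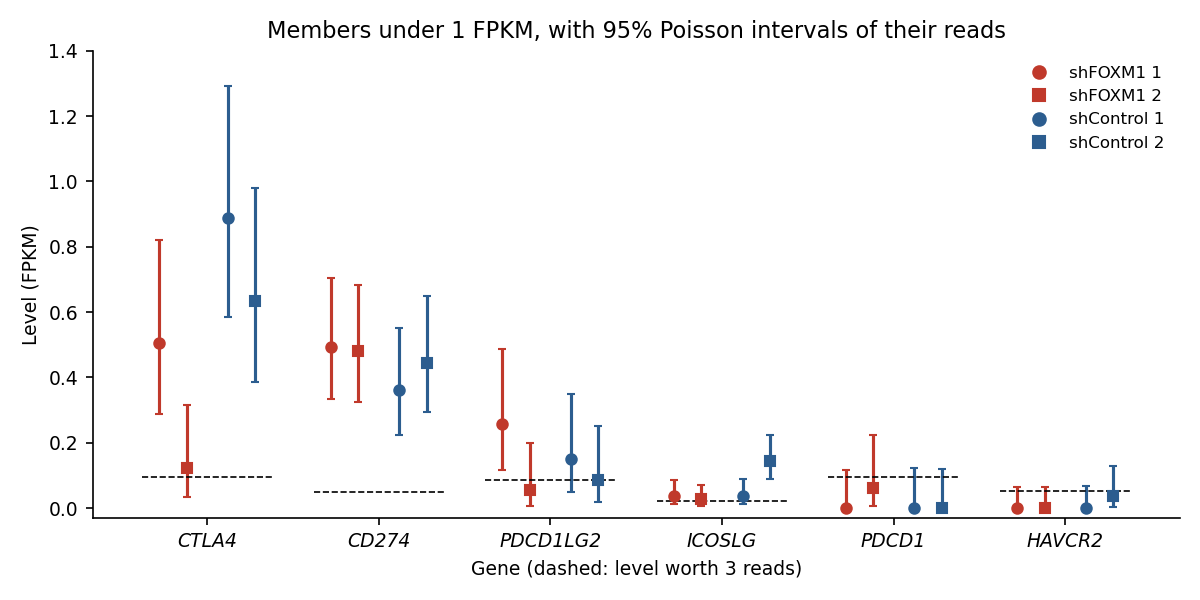
The 6 genes under 1 FPKM, 1 point per library with the exact 95% Poisson interval of its reads; the dashed line is the level that 3 reads are worth. CTLA4 is lowest in shFOXM1 2, the intervals of CD274 overlap throughout, and PDCD1 and HAVCR2 stay under the dashed line in all 4 libraries.

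Of the receptors, ICOS set the 2 knockdown libraries apart. It was at 71.0 FPKM in shFOXM1 1 and 33.3 FPKM in shFOXM1 2, against 60.0 and 57.5 FPKM in shControl 1 and 2. The control libraries thus lay between the knockdown libraries. The difference was well beyond counting error, with exact 95% Poisson intervals of 68.4 to 73.7 FPKM in shFOXM1 1 and 31.5 to 35.1 FPKM in shFOXM1 2, against 57.5 to 62.5 and 55.1 to 59.9 FPKM in shControl. The log2 difference of the groups, -0.26, is therefore the mean of 0.27 in shFOXM1 1 and -0.80 in shFOXM1 2, each against the control mean. FOXM1 was also lower in shFOXM1 2 (5.59 FPKM) than in shFOXM1 1 (9.27 FPKM), and both were below the controls (26.5 and 27.6 FPKM). Whether ICOS follows the level of FOXM1 was not tested.

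CD28, the receptor that gives the classical second signal, was at 1.87 and 1.09 FPKM in shFOXM1 and 2.26 and 2.25 FPKM in shControl, on 135 and 81 reads against 157 and 162. Both knockdown libraries were below both controls, with a ratio of means of 0.655 and a log2 difference of -0.41, and again shFOXM1 2 was the lowest. CTLA4, its inhibitory counterpart, was at 0.505 and 0.123 FPKM in shFOXM1 and 0.889 and 0.633 FPKM in shControl. These values rested on 16 and 4 reads against 27 and 20, and the groups did not overlap. The Poisson interval of shFOXM1 2, 0.0334 to 0.314 FPKM, lay below those of the controls, whereas that of shFOXM1 1, 0.289 to 0.820 FPKM, overlapped them.

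CD28, CTLA4 and ICOS lie side by side on the plus strand of chromosome 2, within 255.1 kb, with no other protein-coding gene between them in the table. CD28 (ENSG00000178562) runs from 203706475 to 203738912, CTLA4 (ENSG00000163599) from 203867771 to 203873965 and ICOS (ENSG00000163600) from 203936748 to 203961577. Levels were unequal along the cluster: within a library ICOS exceeded CD28 by 38.03- and 30.6-fold in shFOXM1 and by 26.5- and 25.6-fold in shControl. Between the knockdown libraries all 3 genes went the same way, shFOXM1 1 exceeding shFOXM1 2 by 1.72-fold for CD28, 4.12-fold for CTLA4 (16 against 4 reads) and 2.13-fold for ICOS. This is not particular to the cluster. Genes elsewhere, such as CD48, CD96 and CD276, were also higher in shFOXM1 1, while BTN2A2 and TNFRSF14 were higher in shFOXM1 2. The share over all genes was not counted. Of the outer neighbours RAPH1 was at 0.422 and 0.252 FPKM in shFOXM1 and 0.512 and 0.440 FPKM in shControl, and PARD3B was at most 0.0126 FPKM in any library.

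**Figure D4:**
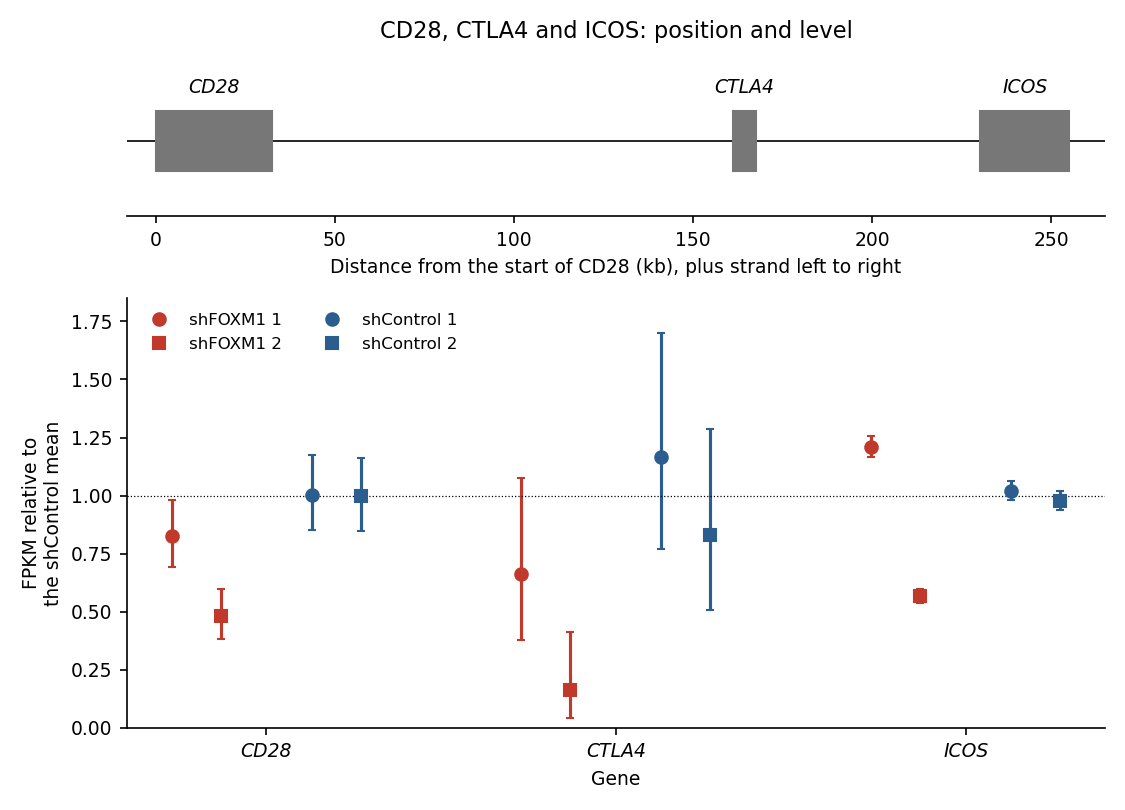
Top, CD28, CTLA4 and ICOS drawn to scale by distance from the start of CD28 in kb. Bottom, FPKM of each library relative to the shControl mean of the gene, with exact 95% Poisson intervals: shFOXM1 2 is the lowest library for all 3 genes, and shFOXM1 1 is above the controls for ICOS alone.

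The checkpoint receptors PDCD1 and HAVCR2 were at or under the level of 3 reads everywhere. PDCD1 had 0 and 2 reads in shFOXM1 and 0 and 0 in shControl, where 3 reads are worth between 0.0931 and 0.1 FPKM. HAVCR2 had 0 and 0 reads in shFOXM1 and 0 and 2 in shControl, with 3 reads worth between 0.0518 and 0.0556 FPKM. No fold is given for either. MED7, a Mediator subunit that shares 50 exonic bases with HAVCR2 on the same strand, was at 4.36 and 4.44 FPKM in shFOXM1 and 3.68 and 2.72 FPKM in shControl.

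Across all genes, limma on log2(FPKM + 1) was run for the 12033 genes that reached 1 FPKM in 2 or more libraries, a limit that 4 of the 10 passed (CD80, CD86, CD28 and ICOS). Over all genes it called 0 higher and 0 lower (0% in each direction) at an adjusted p under 0.05. Voom on the recovered reads called 0 as well, while the unadjusted limma p was under 0.05 for 1061 genes with higher levels (8.82%) and for 1082 with lower levels (8.99%). In 2 of the 4, CD80 and CD86, both knockdown libraries exceeded both controls, which 27.3% of all genes tested did, and in 1 of the 4, CD28, both were below, as for 25.9% of all genes. Since the contrast took part in choosing the genes, nothing is read from these counts.

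The genes around the family were taken from 5 lists of 78 genes. These were chosen with earlier results of these data known, so nothing is read from their counts. Of the 78 genes 54 were tested. Limma called 0 higher and 0 lower, while the unadjusted p was under 0.05 for 10 with higher and 2 with lower levels (over all genes tested, 8.82% and 8.99%), and the median log2 fold change was 0.03, against -0.0007 over all genes tested. In 20 of the 54 both shFOXM1 libraries lay above both controls and in 14 below, against 27.3% and 25.9% of all genes tested. Leaving out shFOXM1 1 gave 15 of them called higher and 9 lower, beside 1360 and 1744 over all genes tested. Leaving out shFOXM1 2 gave 5 and 0, beside 281 and 355 over all genes tested. In these fits the spread comes from the controls alone. As these are bulk samples, fewer cells that express a gene and less RNA per cell cannot be told apart.

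Of 9 other B7 and CD28 relatives 3 were tested, with a median log2 fold change of -0.19. BTN2A2, a butyrophilin that restrains T cells, was at 5.10 and 6.03 FPKM in shFOXM1 and 3.55 and 3.61 FPKM in shControl (log2 fold change 0.52, SE 0.14, limma adjusted p = 0.196). HHLA2, a B7 ligand of costimulatory and inhibitory receptors, was at 13.0 and 9.26 FPKM in shFOXM1 and 15.1 and 15.0 FPKM in shControl (limma adjusted p = 0.314). CD276 (B7-H3), a checkpoint ligand of tumours, was at 15.5 and 9.20 FPKM in shFOXM1 and 12.6 and 15.1 FPKM in shControl, and like ICOS had the controls between the knockdown libraries (limma adjusted p = 0.729).

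Of 22 other checkpoint and costimulatory genes 9 were tested, with a median log2 fold change of -0.03. TNFRSF14 (HVEM), the ligand of BTLA and CD160, was at 16.99 and 20.8 FPKM in shFOXM1 and 10.1 and 10.9 FPKM in shControl, a ratio of means of 1.80 (log2 fold change 0.79, SE 0.14, limma adjusted p = 0.176). CD48, an adhesion ligand of the SLAM family, was at 12.5 and 5.21 FPKM in shFOXM1 and 17.2 and 17.4 FPKM in shControl (log2 fold change -0.997, SE 0.38, limma adjusted p = 0.274). Both knockdown libraries were below both controls for CD48, and its log2 fold change was -1.56 without shFOXM1 1 and -0.44 without shFOXM1 2. LGALS9, encoding galectin-9, a ligand of TIM-3, was at 1.45 and 2.61 FPKM in shFOXM1 and 1.06 and 1.44 FPKM in shControl (limma adjusted p = 0.43). KLRG1, an inhibitory lectin-like receptor, was at 1.59 and 1.31 FPKM in shFOXM1 and 1.87 and 2.14 FPKM in shControl (limma adjusted p = 0.398).

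Of 24 signalling genes below these receptors 20 were tested; their median log2 fold change was -0.02. Of these 7 lay above and 5 below the controls in both knockdown libraries, against 27.3% and 25.9% of all genes tested. PTPN6 (SHP-1), a phosphatase that inhibitory receptors recruit, was at 55.7 and 49.8 FPKM in shFOXM1 and 39.4 and 39.3 FPKM in shControl (limma adjusted p = 0.2). PDPK1, the kinase that activates AKT, was at 8.60 and 10.8 FPKM in shFOXM1 and 6.52 and 6.56 FPKM in shControl (limma adjusted p = 0.218). PIK3CA, a catalytic subunit of PI3-kinase, was at 11.5 and 12.6 FPKM in shFOXM1 and 9.65 and 9.43 FPKM in shControl (limma adjusted p = 0.266). LCK, the kinase that phosphorylates the tails of CD28 and PD-1, had 0 reads in both shFOXM1 libraries and 1 in each shControl library.

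Of 12 genes of trafficking and turnover 11 were tested, with a median log2 fold change of -0.04. CMTM4, a membrane protein that stabilises PD-L1, was at 2.23 and 1.79 FPKM in shFOXM1 and 3.28 and 3.54 FPKM in shControl (log2 fold change -0.55, SE 0.15, limma adjusted p = 0.204). HIP1R, which directs PD-L1 to lysosomes, was at 3.97 and 5.61 FPKM in shFOXM1 and 6.30 and 6.15 FPKM in shControl (limma adjusted p = 0.383). DEF6, which takes part in the trafficking of CTLA4, was at 24.1 and 27.8 FPKM in shFOXM1 and 30.8 and 29.9 FPKM in shControl (limma adjusted p = 0.394). AP2M1, the adaptor subunit that draws CTLA4 into endosomes, was at 73.0 and 81.3 FPKM in shFOXM1 and 67.6 and 67.7 FPKM in shControl (limma adjusted p = 0.42).

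All 11 factors known to drive B7 ligand genes were tested, with a median log2 fold change of 0.26. In 7 both shFOXM1 libraries lay above both controls and in 1 below, against 27.3% and 25.9% of all genes tested. As the list was chosen with earlier results of these data known, nothing is read from this count. HIF1A, the oxygen-regulated factor that induces CD274, was at 36.9 and 38.2 FPKM in shFOXM1 and 19.8 and 22.6 FPKM in shControl (log2 fold change 0.80, SE 0.12, limma adjusted p = 0.173). NFKB2, the NF-kB subunit of the alternative pathway, was at 235 and 311 FPKM in shFOXM1 and 162 and 173 FPKM in shControl (limma adjusted p = 0.189). BATF, an AP-1 factor of activated T cells, was at 146 and 163 FPKM in shFOXM1 and 92.4 and 104 FPKM in shControl (limma adjusted p = 0.176). RELA, the NF-kB subunit of the classical pathway, was at 22.4 and 23.6 FPKM in shFOXM1 and 18.2 and 19.3 FPKM in shControl (limma adjusted p = 0.277). Not all other NF-kB subunits went this way. NFKB1, the 1 below, was at 23.8 and 14.3 FPKM in shFOXM1 and 24.0 and 26.6 FPKM in shControl. RELB overlapped, at 12.6 and 20.3 FPKM in shFOXM1 and 16.2 and 18.6 FPKM in shControl. REL was higher, at 4.91 and 5.90 FPKM against 4.18 and 4.18 FPKM. Whether these factors bear on CD80 was not tested.

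**Figure D5:**
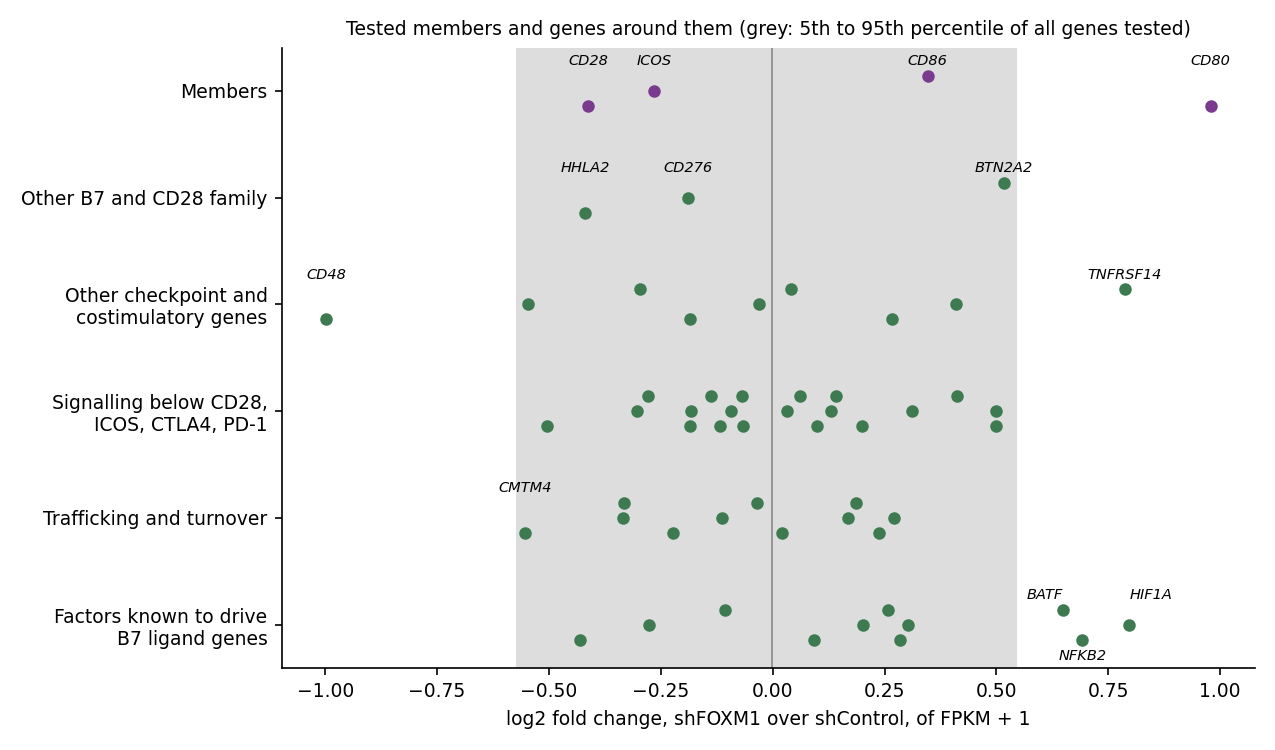
Log2 fold change (shFOXM1 over shControl, FPKM + 1) of the 4 family members tested and of the tested genes of the 5 lists, 1 point per gene; the grey band runs from the 5th to the 95th percentile of all genes tested, -0.57 to 0.54. CD80, TNFRSF14, HIF1A, NFKB2 and BATF lie to the right of the band and CD48 to the left. CD80 took part in choosing the genes, so its place is a description; limma called 0 of the genes of the lists.

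The genes whose profile over the 4 libraries was most like that of CD80, by Euclidean distance of the centred log2(FPKM + 1) values among the genes tested, were HIST1H2BJ, AC007114.1, LINC01431, NKX2-8 and LMNA, at distances of 0.0717, 0.129, 0.135, 0.135 and 0.146. With 4 libraries such likeness amounts to a similar size of difference between the groups on that scale, which understates changes of low genes. As ratios of mean FPKM the low genes differed more, at 3.45 for HIST1H2BJ, 2.45 for AC007114.1 and 3.13 for LINC01431. The ratio was 2.04 for NKX2-8 and 1.83 for LMNA, against 2.03 for CD80. LMNA, which encodes the nuclear lamins A and C, was at 187 and 151 FPKM in shFOXM1 and 90.6 and 94.6 FPKM in shControl (limma adjusted p = 0.174). NKX2-8, a homeobox factor, was at 24.2 and 23.5 FPKM in shFOXM1 and 11.7 and 11.8 FPKM in shControl (limma adjusted p = 0.173). HIST1H2BJ, AC007114.1 and LINC01431 rested on between 7 and 48 reads per library, and histone genes have near-identical copies.

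Since CD80 and CD86 are best known from antigen-presenting cells, markers of those cells were read beside them. Of 10 dendritic and Langerhans cell markers 6 were at 0 in all 4 libraries (CD1A, CD1C, XCR1, CLEC4C, CLEC9A and CLEC10A), and the summed level of the 10 was 3.37 and 4.37 FPKM in shFOXM1 and 6.13 and 7.18 FPKM in shControl. Most of that sum was ITGAX, an integrin, at 2.81 and 3.98 FPKM in shFOXM1 and 5.55 and 6.48 FPKM in shControl. Of 10 monocyte and macrophage markers 9 were under 1 FPKM in every library, CD163, FCGR3A, S100A8 and S100A9 at 0, and CSF1R was at 13.5 and 8.47 FPKM in shFOXM1 and 12.8 and 9.04 FPKM in shControl. The B cell markers MS4A1 and JCHAIN were at 0 in every library, while MZB1 was at 43.8 and 41.6 FPKM in shFOXM1 and 48.2 and 46.2 FPKM in shControl and FCER2 at 6.04 and 2.76 FPKM and 5.69 and 6.78 FPKM in the same groups. CD79A was at 0.270 and 7.38 FPKM in shFOXM1 and 1.73 and 1.44 FPKM in shControl. Summed markers of fibroblasts and endothelium, mainly COL3A1 and COL1A1, were at 48.4 and 20.5 FPKM in shFOXM1 and 27.1 and 25.5 FPKM in shControl. Those of keratinocytes and epithelium, from KRT10, TP63 and CDH1, were at 20.7 and 26.7 FPKM in shFOXM1 and 23.5 and 22.0 FPKM in shControl. The part of other cell types in the levels of CD80 and CD86 was not tested.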

How the data were processed

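RNA of 4 libraries (2 shFOXM1, 2 shControl) was extracted with a column kit and prepared with a SMARTER mRNA kit, per the labels' protocols. The authors deposited 1 table of FPKM with gene lengths; no aligner, counter or strand setting is named in what was used here. GRCm38 and mm10 stand in the submitters' processing notes, but all 58735 gene IDs and coordinates equal those of human GENCODE 29 (GRCh38). The columns named sh0 were taken as shControl and those named sh1 and sh2 as shFOXM1 1 and 2; 0 columns belonged to other samples. Dates stood in place of 27 symbols, and MARCH1 and MARCH8 were matched by ID.

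Multiplied by gene length, 100% of FPKM values came out as whole reads to within 0.001 read. Replicates were distinct libraries, with a chi-square per degree of freedom of 36.5 in shFOXM1 and 3.93 in shControl. The test was limma 3.58.1 in R 4.3.3 on log2(FPKM + 1), for genes reaching 1 FPKM in 2 or more libraries (trend, two-sided, Benjamini-Hochberg), a scale that understates changes of low genes, and the procedure was tested on simulated data. A comparison of 2 against 2 has a smallest exact permutation p of 0.333, so single values have none. Alternatives were pseudocounts, filters, quantile scaling, recovered totals, voom, a replicate block and each library left out. ICOS ligand transcripts were aligned with blastn 2.17.0.

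The members and lists were chosen with earlier results of these data known. Named genes are the 10 members, FOXM1, the 4 smallest p-values per list, the 5 profiles nearest CD80, expressed neighbours of members and markers of other cell types at 1 FPKM or more. RAPH1, PARD3B, LCK, NFKB1, RELB, REL, FP565260.3, the T cell markers and the genes of the closing section were named after their values were seen. Some genes that this rule names are not reported here.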

Additional observations from a re-analysis of the deposited data

How the results depend on the processing

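CD80 kept its direction under every alternative run, from 0.88 to 1.08 on the log2 scale, and with the replicate block it was 0.98. CD86 ran from 0.31 to 0.39 and CD28 from -0.66 to -0.18. With single libraries left out the calls ran from 0 to 1360 genes higher and 0 to 1744 lower, and in the lists around the family from 0 to 15 higher and 0 to 9 lower; every call came from omitting one of the shFOXM1 libraries (1360 and 1744 without shFOXM1 1, 281 and 355 without shFOXM1 2), when the lone library is assumed to vary as the controls do. Under every other alternative run, the replicate block included, 0 genes were called. Same-numbered libraries shared little deviation (correlation 0.0421 over genes), and the labels do not say that numbers pair cultures. With single libraries left out the sign turned for 6 of 42 genes: ICOS ran from -0.80 to 0.27, PDCD1LG2 from -0.082 to 0.17, CD276 from -0.53 to 0.16, GATD3A from -0.17 to 0.27, PLGRKT from -0.37 to 0.21 and RIC1 from -0.32 to 0.022. Among those that kept their sign, CD48 ran from -1.56 to -0.44, HHLA2 from -0.65 to -0.19, LGALS9 from 0.13 to 0.69 and HIP1R from -0.54 to -0.13. Smaller pseudocounts enlarged the differences of low genes, CTLA4 reaching -1.54 at 0.01. No scaling moved the median of all genes by over 0.1. Depth limits PDCD1, HAVCR2, PDCD1LG2, ICOSLG, CTLA4 and CD274.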

Other observations

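TIGIT, an inhibitory receptor of T cells and natural killer cells, was chosen after its values were seen. It was at 49.5 and 47.8 FPKM in shFOXM1 and 49.0 and 50.4 FPKM in shControl, so the groups overlapped, whereas LAG3, another inhibitory receptor, had 7 and 1 reads in shFOXM1 and 8 and 3 in shControl. PVR, the ligand that TIGIT shares with CD226 and CD96, was at 21.6 and 15.9 FPKM in shFOXM1 and 14.2 and 16.4 FPKM in shControl. CD226, the activating receptor of that ligand, had 9 and 9 reads in shFOXM1 and 9 and 8 in shControl. CD96 was at 9.40 and 3.41 FPKM in shFOXM1 and 8.28 and 9.54 FPKM in shControl, lowest in shFOXM1 2. The same library was lowest for CD48, ICOS, CD28, CTLA4, CD276 and HHLA2, and highest for BTN2A2, TNFRSF14, LGALS9, PDPK1 and NFKB2. The share of all genes that are lowest in it was not counted, so nothing is read from these names.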
